A study of Homo sapiens with 42 samples.

Results

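The region from PHKB to ABCC12 on chromosome 16 was described by its chromatin loops. Its members were chosen by position, as every loop of the deposited table with an anchor start inside chr16:47300000-48500000 (GRCh38), which gave 37 of 33914. Of these, 27 passed the filter on low counts and were among the 24132 loops tested, and 6 of the 37 had both anchors inside the window. The region itself was selected on measured contact counts, because it holds a loop among the largest rises of the table at both 6 h and 72 h against 0 h. Those 2 comparisons are therefore given for its loops as descriptions, with no p-value, and support nothing. Where a call in them is named below, or kept or lost in another fit, that too is a description.

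The cells were K562, an established human leukemia line that is WT by its label, grown in RPMI with serum and exposed to 25 nM PMA (a phorbol ester that drives these cells toward a megakaryocyte-like state) for 0 h, 6 h or 72 h. All 3 groups are the same line, and the 0 h group is the untreated starting point. Contacts were counted by in situ Hi-C, which joins DNA ends lying close together in crosslinked nuclei. Each time point had 14 sequenced samples from 4 biological replicates, summed here into 12 libraries. The labels do not say that the replicates came from separate cultures, so each p-value measures only the spread between these libraries, which may be technical.

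Libraries held 849895 to 1472197 contacts over all loops at 0 h, 736929 to 1090199 at 6 h and 988726 to 1181057 at 72 h, of which the region took 0.0535% to 0.0704%. Between replicates 3 and 4 no difference beyond sampling noise was found at any time point (chi-square per degree of freedom of 1.01, 1.02 and 0.999 for 0 h, 6 h and 72 h, with p of 0.115, 0.0616 and 0.536), while every other pair of one time point differed. Every mean ± SD therefore averages this pair into a single sample and has n = 3, whereas the tests kept them as separate libraries. A normalized count is the number of contacts between the anchors of a loop per 1000000 contacts in the tested loops of that library, after scaling by edgeR's trimmed mean of M-values (TMM). It holds the local background of contacts as well as the loop.

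A loop is a pair of distant stretches of DNA, here 10 kb anchors, that meet more often than their surroundings. Many loops in mammalian cells form when cohesin extrudes chromatin until it is held by CTCF at both anchors, and others join promoters to distal enhancers. PHKB encodes the regulatory beta subunit of phosphorylase kinase, the enzyme that activates glycogen phosphorylase and so starts the breakdown of glycogen. ITFG1, which encodes a membrane protein with an integrin-alpha-like repeat, is transcribed away from it. ABCC12 and ABCC11 are neighbouring members of subfamily C of the ATP-binding cassette transporters, and LONP2 encodes the Lon protease of peroxisomes.

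Along the chromosome (RefSeq, GRCh38.p14) ITFG1 occupied 47154391 to 47461246 on the minus strand and PHKB 47461299 to 47701523 on the plus strand. An interval of 379.4 kb with 0 protein-coding genes followed, and then ABCC12 at 48080882 to 48155993 and ABCC11 at 48164819 to 48247539, both on the minus strand. LONP2 lay at 48244300 to 48363003 on the plus strand. No anchor of the region held an end of LONP2. Anchors inside the gene bodies of LONP2 (48350001-48360000) and ABCC11 (48230001-48240000) took part in 3 and 2 loops.

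The sequences at the anchors that the results turn on are shown 5′ to 3′ along the strand named, from RefSeq with the build GRCh38.p14. The first lies between the start of ITFG1 and the start of PHKB, 52 bases in all, so that 1 anchor holds both starts (plus strand, chr16:47461247-47461298). The next are the 250 bases before the start of ABCC12 (minus strand, chr16:48155994-48156243), the other anchor of the loop that led the choice of the region. The 250 bases before NETO2 (minus strand, chr16:47143946-47144195) come from the anchor with the most loops to the region on its left. Those before the long non-coding RNA LINC02134 (plus strand, chr16:47965439-47965688) come from an anchor of a loop with its own highest mean at 6 h. Those before LOC105371240 (plus strand, chr16:48623187-48623436) come from the right-hand anchor of 3 loops. Capitals mark a match to a searched motif.
ITFG1-PHKB interval: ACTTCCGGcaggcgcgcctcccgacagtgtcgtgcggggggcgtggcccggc
ABCC12 upstream: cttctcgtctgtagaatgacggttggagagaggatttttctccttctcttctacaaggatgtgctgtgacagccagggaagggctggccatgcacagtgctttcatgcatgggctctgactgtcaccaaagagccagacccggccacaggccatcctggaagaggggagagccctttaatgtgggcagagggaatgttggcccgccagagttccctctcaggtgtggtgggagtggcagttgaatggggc
NETO2 upstream: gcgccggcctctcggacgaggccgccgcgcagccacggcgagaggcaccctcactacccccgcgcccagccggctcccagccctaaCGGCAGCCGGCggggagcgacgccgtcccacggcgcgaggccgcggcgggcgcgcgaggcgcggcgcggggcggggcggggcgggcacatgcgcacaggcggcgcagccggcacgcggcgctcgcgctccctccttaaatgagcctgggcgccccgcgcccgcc
LINC02134 upstream: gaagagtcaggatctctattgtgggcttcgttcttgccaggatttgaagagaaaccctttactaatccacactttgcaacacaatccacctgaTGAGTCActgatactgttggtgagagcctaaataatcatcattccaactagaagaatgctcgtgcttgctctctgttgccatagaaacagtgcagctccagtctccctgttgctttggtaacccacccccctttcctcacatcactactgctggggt
LOC105371240 upstream: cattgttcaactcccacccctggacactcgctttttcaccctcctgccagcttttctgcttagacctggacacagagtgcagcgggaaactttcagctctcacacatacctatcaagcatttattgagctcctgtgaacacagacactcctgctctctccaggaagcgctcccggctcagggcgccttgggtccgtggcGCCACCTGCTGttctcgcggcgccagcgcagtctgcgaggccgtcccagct

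The 4 motifs, searched on both strands and picked after the sequences had been seen, were those of the ETS and GATA families of factors, of AP-1 and a core of the CTCF site. ETS was searched as CCGGAAGT, a sequence known from many promoters of widely expressed genes. GATA, the motif of the erythroid and megakaryocytic GATA factors, was searched as AGATAA and matched none of these windows (9.17% of all windows of 250 bases). The letters for AP-1, a factor known to respond to phorbol esters, were TGANTCA. The core for CTCF was a C, 3 bases of any kind, AG, 2 bases of any kind and GGC. The ITFG1-PHKB interval, 78.8% G and C, opened with an ETS match on the minus strand, which 1.73% of 35116 promoter windows of 52 bases hold. The NETO2 window (82.4% G and C) and the LOC105371240 window each held 1 match to the CTCF core, on the plus strand for the first as printed and on the other strand for the second. This core occurs in 22.4% of all windows of 250 bases. The LINC02134 window held 1 AP-1 match, 157 bases before the gene start, and 6.57% of windows hold one. The ABCC12 window held none of the 4 motifs, and no matches overlapped. A match is a run of letters and shows no binding.

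The loop that led the choice joined the anchor with both the ITFG1 and PHKB starts (chr16:47460001-47470000) to the anchor with the ABCC12 start (chr16:48150001-48160000), 690 kb away. Its contacts in replicates 1 to 4 were 5, 2, 3 and 1 at 0 h. They were 11, 7, 5 and 9 at 6 h, and 19, 11, 12 and 16 at 72 h. No library at 6 h or 72 h fell as low as the highest normalized count at 0 h, and the lowest at 72 h, 11.0, lay just above the highest at 6 h, 10.9. The mean normalized count of the 0 h libraries was 2.66 ± 0.88, that of the 6 h libraries 8.76 ± 2.1 and that of the 72 h libraries 13.7 ± 2.9 (SD, n = 3).

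The log2 fold change of the ITFG1/PHKB to ABCC12 loop was 1.68 (SE 0.48) at 6 h and 2.31 (SE 0.42) at 72 h against 0 h, rank 3 of 24132 in both. Both values use the same 0 h libraries, with 11 contacts in all, so they are not separate observations. The summed contacts, scaled by depth, were 3.30 times those at 0 h at 6 h (95% interval 1.62 to 7.25, exact, counting error only) and 5.15 times at 72 h (2.68 to 10.9). From 6 h to 72 h the log2 fold change was 0.63 (SE 0.33), which did not pass edgeR's quasi-likelihood test (adjusted p = 0.16), and the ratio was 1.56 (0.997 to 2.49). That comparison was not named in the choice but uses the same libraries. Within replicates 1 and 2 alone the 6 h and 72 h values were 1.54 and 2.24, and within replicates 3 and 4 they were 1.87 and 2.43. The 6 h call ended without 0 h replicate 4 (1.47), 6 h replicate 1 (1.54) or 6 h replicate 4 (1.57). It was also not made within either pair of replicates, nor by DESeq2.

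These values rest on few contacts. The 4 libraries of a time point together held 11 contacts at 0 h (exact 95% Poisson interval 5.49 to 19.7), 32 at 6 h (21.9 to 45.2) and 58 at 72 h (44.0 to 75.0). Among the 10 columns of technical replicates per time point, 0 h columns held 0 to 2 contacts, with 2 of 10 at 0, while 6 h columns held 1 to 7 and 72 h columns 1 to 8. Only 1.01% of tested loops had a lower mean normalized count over all libraries than its 8.36. The loop passed the filter on low counts through its later time points, since no 0 h library reached the filter's level of 10.0 normalized counts.

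**Figure D1:**
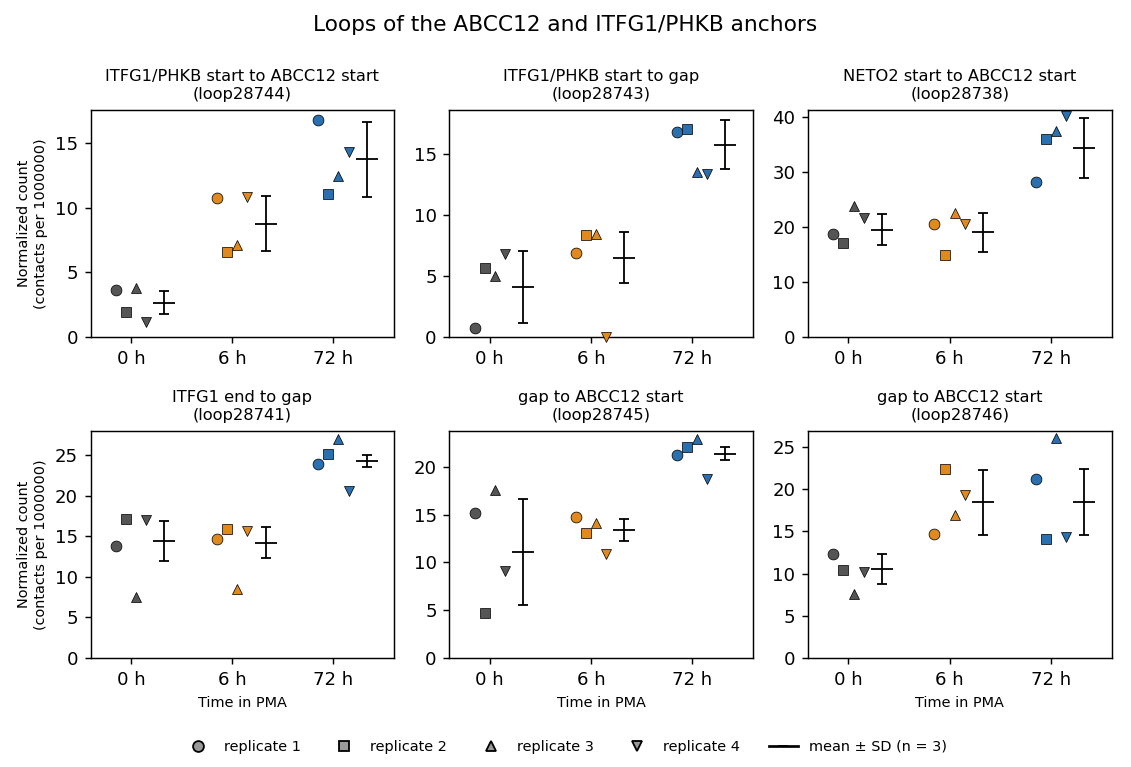
Normalized counts (vertical axes, contacts per 1000000) of 6 loops by time in PMA; each point is 1 library, its shape gives the replicate, and bars show the mean ± SD (n = 3, replicates 3 and 4 averaged). The ITFG1/PHKB to ABCC12 loop steps from 2.66 to 8.76 to 13.7, whereas the NETO2 to ABCC12 loop is raised at 72 h alone. The ITFG1/PHKB loop to the interval between PHKB and ABCC12 (gap) goes from 4.11 to 6.51 to 15.8, and its 0 h and 6 h libraries overlap.

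The label of the region, an early and lasting rise, describes this loop and not the region. At 6 h against 0 h, 2 of the 27 tested loops were called higher (7.41%; 2.34% of all tested loops were called higher and 6.41% in either direction) and 0 lower (4.07% of all; at an unadjusted p under 0.05, 8 loops of the region were higher and 1 lower). DESeq2 called 0 of them at 6 h, beside 438 of all 24132 loops, with 5 higher and 1 lower at an unadjusted p under 0.05. At 72 h against 0 h, 9 were called higher (33.3%; 16.7% of all) and 0 lower (16.9% of all; 1 lower at an unadjusted p under 0.05), and DESeq2 called 6 higher and 0 lower, beside 4977 of all loops in either direction. Nothing is read from these counts, since the choice used both comparisons.

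From 6 h to 72 h, 11 of the 27 loops passed edgeR's test (adjusted p under 0.05), 40.7% against 20.5% of all tested loops and 15.3% of the 2247 tested loops of 600 to 800 kb. That class lies around the 690 kb of the leading loop, whereas the 37 loops of the region span 170 to 1550 kb, so it does not match their lengths. Of the 11, 7 rose (10.7% of all loops did) and 4 fell (9.81%). Among those that rose, the second loop of the ITFG1/PHKB anchor was tested only through its 72 h libraries. Among those that fell, the loop from chr16:47980001-47990000 was tested mainly through its 6 h libraries. The split turned to 4 that rose and 7 that fell with no filter on low counts (37 loops tested), and was 4 and 4 with the length correction and 5 and 5 with replicates 3 and 4 summed. Over all loops the main fit called 2577 that rose and 2368 that fell. These numbers were 2275 and 2706 with no filter, 2296 and 2432 with the length correction, and 2359 and 2136 with that pair summed. The count was 6 without 6 h replicate 1, 5 without 6 h replicate 2, and 7 without 72 h replicate 1 or 4. Over all loops these fits called 3676, 4415, 3768 and 4246, beside 4945 with all libraries. DESeq2 called 3 of the 27, with NETO2 to ABCC12 and the second loop of the ITFG1/PHKB anchor higher and LINC02134 to ABCC11 lower, beside 1979 of all 24132. The 4 libraries of each time did not overlap in 7 loops that were higher at 72 h and 2 that were lower, beside 10.4% and 9.43% of all tested loops (19.8% in either direction). Against 0 h, libraries did not overlap in 4 loops higher and 1 lower at 6 h (4.97% and 5.77% of all, 10.7% together) and in 8 higher and 0 lower at 72 h (14.2% and 14.1% of all, 28.3% together). Against 0 h the median log2 fold change over the 27 loops was 0.18 (6 h) and 0.07 (72 h), and from the earlier to the later time 0.09, where all tested loops had 0.01, 0.01 and 0.00. In each comparison 17 of 27 were above 0.

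**Figure D2:**
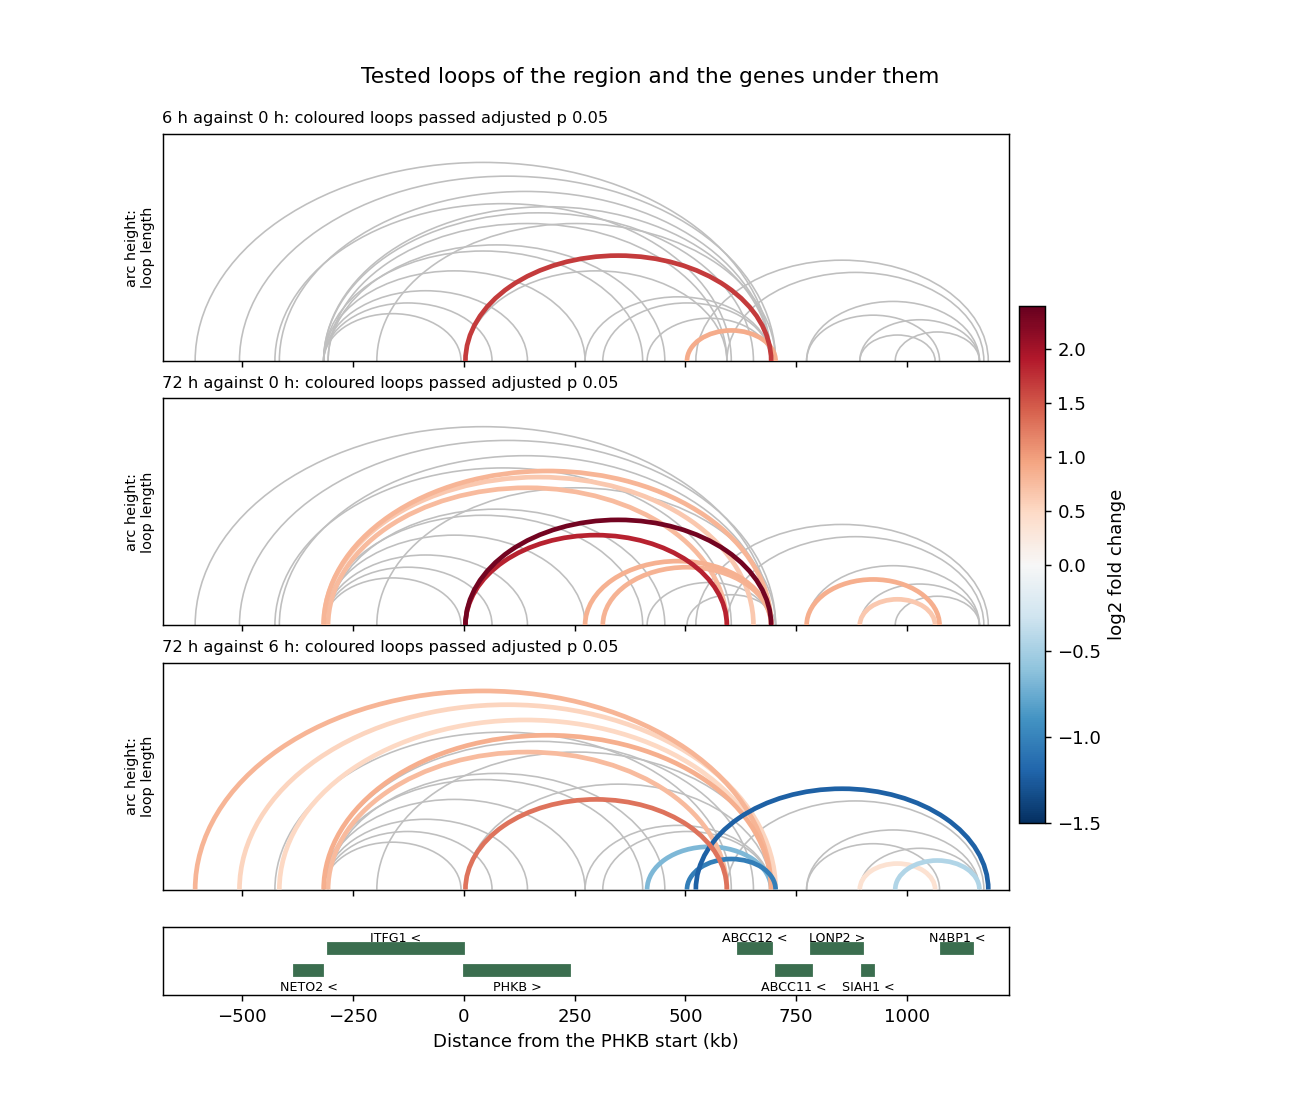
Arcs join the anchors of the 27 tested loops, placed by distance in kb from the PHKB start (horizontal axis; arc height is proportional to loop length), with the genes and their direction below. Coloured arcs passed an adjusted p of 0.05 in the comparison named above each panel, with colour for the log2 fold change, and grey arcs did not: 2 are coloured at 6 h, 9 at 72 h against 0 h, and 11 at 72 h against 6 h, of which 4 are blue (lower). Colours in the panels against 0 h are descriptions, since the region was chosen with those comparisons.

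The other loop of the ITFG1/PHKB anchor reached chr16:48050001-48060000, in the interval before ABCC12, 590 kb away. Its contacts were 1, 6, 4 and 6 at 0 h, 7, 9, 6 and 0 at 6 h, and 19, 17, 13 and 15 at 72 h. Every 72 h library lay above every earlier one, while 0 h and 6 h overlapped. A count of 0 in 6 h replicate 4 allows up to 3.62 normalized counts at 3 contacts. The means were 4.11 ± 2.9, 6.51 ± 2.1 and 15.8 ± 2.0 normalized counts (SD, n = 3), and against 0 h the log2 fold change was 0.53 (SE 0.49) after 6 h and 1.84 (SE 0.38) after 72 h. It rose by 1.31 between 6 h and 72 h (SE 0.36; edgeR adjusted p = 0.0049), a call that ended without 6 h replicate 4 (adjusted p = 0.060) and within either pair of replicates (0.086 and 0.063). This loop passed the filter on low counts through its 72 h libraries alone, since no 0 h or 6 h library reached 10.0 normalized counts. Its change from 6 h to 72 h is therefore a description, and its p-values support nothing. The 2 loops of this anchor together had 6.77 ± 2.1, 15.3 ± 2.2 and 29.5 ± 3.6 normalized counts.

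The ABCC12 anchor took part in 7 loops, all tested, and their normalized counts together came to 118.5 ± 7.1 before treatment, 127.0 ± 1.4 after 6 h and 164.6 ± 8.7 after 72 h (SD, n = 3). The ITFG1/PHKB loop made up 2.26% ± 0.73 of the contacts of the anchor at 0 h, 6.91% ± 1.7 at 6 h and 8.31% ± 1.5 at 72 h. Of the contacts of its other anchor, that of ITFG1 and PHKB with 2 loops, it made up 45.6% ± 33, 59.2% ± 14.6 and 46.4% ± 6.1 (SD, n = 3), which overlap. The other 6 loops of the ABCC12 anchor each had a higher mean normalized count at 0 h, from 10.5 to 43.6, and took several courses.

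NETO2 encodes an auxiliary subunit of kainate receptors, and its start anchor (chr16:47140001-47150000) lay 1010 kb from that of ABCC12. The NETO2 to ABCC12 loop had 18.8, 17.1, 23.8 and 21.6 normalized counts at 0 h and 20.6, 14.95, 22.6 and 20.5 at 6 h. At 72 h it had 28.3, 36.1, 37.4 and 40.2, above every earlier library, while 0 h and 6 h overlapped throughout. Its log2 fold change was -0.05 (SE 0.24) at 6 h and 0.82 (SE 0.20) at 72 h against 0 h. It then rose by 0.87 (SE 0.21, 72 h against 6 h; edgeR adjusted p = 0.0010), a call that held without each library in turn. The call also held within each pair of replicates, whereas that of 72 h against 0 h ended with a correction for loop length (log2 fold change 0.49).

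The ABCC12 anchor also met 3 anchors between PHKB and ABCC12. The loop to chr16:47730001-47740000 had means of 11.1 ± 5.6, 13.4 ± 1.1 and 21.4 ± 0.65 normalized counts (SD, n = 3), and all 72 h libraries lay above all others. Its change from 6 h to 72 h, 0.67 (SE 0.26), missed the threshold (edgeR adjusted p = 0.052), and its 72 h call against 0 h ended without 0 h replicate 2. The loop to chr16:47770001-47780000 was already high at 6 h, with means of 10.5 ± 1.7, 18.4 ± 3.9 and 18.5 ± 3.9. Its 0 h libraries did not overlap with the later ones, and its log2 fold change was 0.81 (SE 0.28) at 6 h, which was not called, and 0.84 (SE 0.27) at 72 h, a call that ended without 72 h replicate 3. The third, to chr16:47870001-47880000, was higher at 6 h alone and is described with the loops like it.

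The remaining loops of the ABCC12 anchor were its longest, 1300 kb to chr16:46850001-46860000 and 1110 kb to chr16:47040001-47050000. Neither was higher at 6 h. The first had means of 12.2 ± 1.2, 9.29 ± 2.6 and 15.4 ± 6.4 normalized counts, and rose by 0.82 (SE 0.30; edgeR adjusted p = 0.041) from 6 h to 72 h. That call ended without 6 h replicate 2 or 3 or 72 h replicate 1, 3 or 4 (adjusted p up to 0.19). The second had means of 43.6 ± 4.5, 30.4 ± 2.4 and 43.6 ± 2.1, with every 6 h library below every library at 0 h and 72 h. It rose by 0.50 (SE 0.18; adjusted p = 0.030) from 6 h to 72 h, which brought it back to its 0 h mean, and the call ended without 6 h replicate 1, 2 or 4 or 72 h replicate 1 or 4 (adjusted p up to 0.093). With a correction for loop length, neither passed (adjusted p = 0.23 and 0.31).

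The NETO2 anchor held 7 loops of the region, and besides the one to ABCC12 only that to chr16:48110001-48120000, inside ABCC12, was called at any comparison. Its means were 19.1 ± 3.0, 20.4 ± 4.7 and 28.1 ± 8.9 normalized counts, with a log2 fold change of 0.64 (SE 0.21) at 72 h against 0 h. The call ended without 0 h replicate 1 or 72 h replicate 3 or 4 and with the length correction (log2 fold change 0.32), and the change from 6 h to 72 h, 0.55 (SE 0.22), missed the threshold (edgeR adjusted p = 0.052). The other 5 loops of this anchor, into ITFG1, PHKB and the interval beyond, had log2 fold changes against 0 h between -0.38 and 0.55 at 6 h and between -0.28 and 0.04 at 72 h. The 3' end of ITFG1 (chr16:47150001-47160000), in the next bin, met chr16:48050001-48060000 with means of 14.4 ± 2.5, 14.2 ± 1.9 and 24.3 ± 0.73. All 72 h libraries of that loop lay above all others, and it rose by 0.77 (SE 0.25; edgeR adjusted p = 0.017) from 6 h to 72 h, a call that ended without 6 h replicate 3 (0.074) and with the length correction (0.064). Its 72 h call against 0 h ended without 0 h replicate 3 and with the length correction (log2 fold change 0.47). The ITFG1 end to chr16:47910001-47920000 loop was not called (11.4 ± 1.7, 11.3 ± 3.0 and 14.3 ± 6.4).

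**Figure D3:**
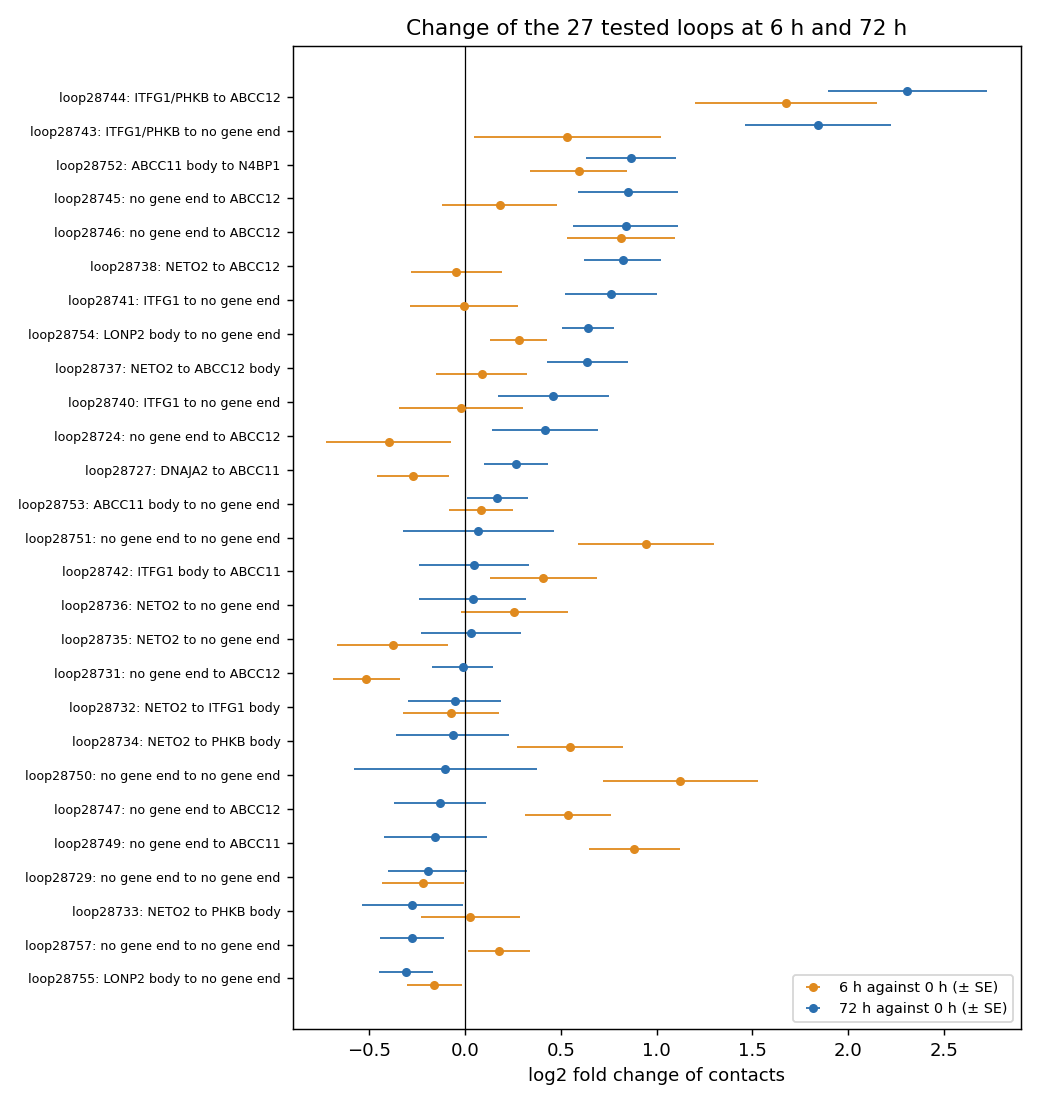
Log2 fold change of contacts (horizontal axis, ± SE) of each of the 27 tested loops at 6 h (orange) and 72 h (blue) against 0 h, ordered by the 72 h value and named by the genes that end in each anchor or hold it in their body. The ITFG1/PHKB to ABCC12 loop has the highest value at both times (1.68 and 2.31), with a standard error that overlaps that of the next loop (1.12 at 6 h and 1.84 at 72 h), and the loops from the interval between PHKB and ABCC12 to ABCC11 and to the far right have their higher value at 6 h.

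Several loops with an anchor in the interval between PHKB and ABCC12 took another course and were highest at 6 h. This grouping was noticed in the values and is a description. The clearest joined the start of LINC02134 (chr16:47960001-47970000), whose AP-1 match is shown above, to the 3' end of ABCC11 (chr16:48160001-48170000), 200 kb away. It had 11.6, 16.1, 11.3 and 23.9 normalized counts at 0 h, 30.4, 27.1, 36.8 and 20.5 at 6 h, and 13.3, 7.03, 14.6 and 19.6 at 72 h. All 6 h libraries lay above all 72 h libraries, and 1 library at 0 h, replicate 4, overlapped with those at 6 h. The log2 fold change was 0.88 (SE 0.24) at 6 h, the other of the 2 calls of the region at that time, and -0.15 (SE 0.27) at 72 h against 0 h. From 6 h to 72 h it fell by 1.04 (SE 0.24; edgeR adjusted p = 0.00071), a call that held without each library in turn but not within replicates 3 and 4 alone (0.18). The 6 h call ended without 0 h replicate 1 or 6 h replicate 3.

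The loop from chr16:47870001-47880000 to ABCC12 had means of 18.9 ± 1.8, 27.6 ± 6.9 and 17.6 ± 3.1 normalized counts (SD, n = 3), with every 6 h library above every other. It fell by 0.67 (SE 0.23; edgeR adjusted p = 0.024) from 6 h to 72 h, a call that ended without 6 h replicate 2 or 72 h replicate 1 or 3 (up to 0.17). The loop from chr16:47980001-47990000 to chr16:48640001-48650000, beyond the start of N4BP1, had means of 5.10 ± 0.98, 11.7 ± 2.6 and 4.44 ± 2.1. It fell by 1.23 (SE 0.41; adjusted p = 0.021), a call that ended without 6 h replicate 1 or 72 h replicate 2 or 4 (up to 0.11). No 72 h library of that loop reached the filter's level of 10.0 normalized counts, and at 0 h only replicate 3 did. It was thus tested mainly through 6 h, where it is high, so its fall is a description. The loop from chr16:48050001-48060000 to chr16:48630001-48640000 had 6.97 ± 1.4, 13.7 ± 5.2 and 7.11 ± 2.4, and its change of -0.88 (SE 0.35) missed the threshold (edgeR adjusted p = 0.057). That left-hand anchor is the one that the ITFG1/PHKB start and the ITFG1 end met more often at 72 h. Outside 6 h, only 72 h replicate 3 of this last loop reached the filter's level, so its change is a description too.

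**Figure D4:**
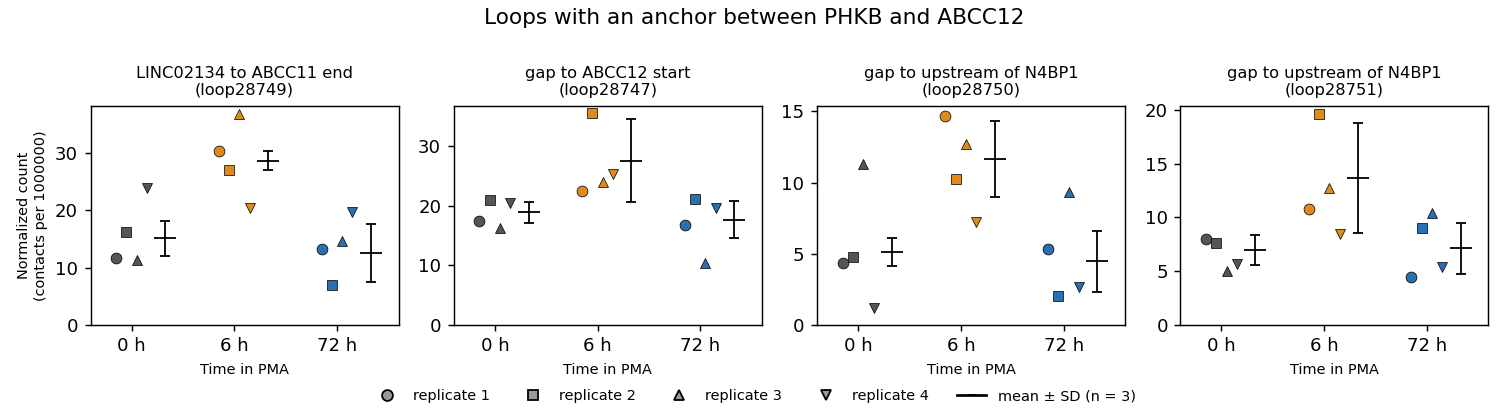
Normalized counts (vertical axes, contacts per 1000000) of 4 loops with an anchor in the interval between PHKB and ABCC12 (gap), by time in PMA; points are libraries, shapes replicates and bars the mean ± SD (n = 3). Each mean is highest at 6 h, 28.7 for the LINC02134 to ABCC11 loop, and returns by 72 h to about its 0 h level.

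Over the region, 19 of the 37 loops had an anchor in that interval, and 12 of these 19 had their highest mean at 6 h. Among the tested ones it was 5 of 12, beside 4 of the 15 tested loops with no such anchor and 27.7% of all tested loops. From 6 h to 72 h, 2 of the 12 rose and 3 fell, and among the other 15, 5 rose and 1 fell (10.7% and 9.81% of all tested loops did). The difference between these groups was not tested.

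The other loops of the ABCC11 end anchor reached an anchor with an end of DNAJA2, which encodes a co-chaperone of the Hsp70 family (chr16:46950001-46960000), and a site inside ITFG1 (chr16:47260001-47270000). The DNAJA2 loop, 1210 kb long, had means of 35.8 ± 7.1, 30.0 ± 3.5 and 43.0 ± 7.3 normalized counts. It rose by 0.54 (SE 0.18; edgeR adjusted p = 0.021) from 6 h to 72 h, a call that ended without 6 h replicate 1 or 2 or 72 h replicate 3 or 4 (up to 0.094) and with the length correction (0.31). The loop into ITFG1 was not called (12.5 ± 1.2, 16.2 ± 3.4 and 14.0 ± 5.3).

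On the LONP2 side, the loop from inside LONP2 (chr16:48350001-48360000) to chr16:48520001-48530000 was among the strongest of the region. Its normalized counts were 55.8, 47.5, 57.7 and 34.1 at 0 h, 61.8, 60.7, 60.9 and 55.5 at 6 h, and 74.3, 78.3, 80.1 and 75.9 at 72 h. The 72 h libraries lay above all others. Its log2 fold change was 0.28 (SE 0.15) at 6 h and 0.64 (SE 0.14) at 72 h against 0 h. The 72 h call held without each library and within each pair of replicates, a description only, since the choice of the region used this comparison. The loop rose by 0.36 between the later times (SE 0.14; edgeR adjusted p = 0.042), but that call ended without any 1 of the 8 libraries of those times (up to 0.11). The loop from inside ABCC11 to the 3' end of N4BP1, a gene for a NEDD4-binding protein (chr16:48530001-48540000), had 13.9 ± 1.4, 20.4 ± 4.1 and 24.0 ± 5.6, with a log2 fold change of 0.59 (SE 0.25) at 6 h and 0.87 (SE 0.24) at 72 h.

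The 3 loops to the LOC105371240 anchor (chr16:48620001-48630000), whose CTCF core match is shown above, started inside ABCC11, inside LONP2 and at chr16:48430001-48440000. None was called higher. The loop from LONP2, with 63.5 ± 11, 59.6 ± 8.2 and 53.8 ± 7.9 normalized counts, and that from ABCC11, with 39.9 ± 4.1, 42.6 ± 3.3 and 45.1 ± 5.4, were not called at any comparison. The third had 42.2 ± 6.0, 48.3 ± 2.0 and 33.4 ± 6.8 and fell by 0.45 (SE 0.17; edgeR adjusted p = 0.041) from 6 h to 72 h. That call ended without 6 h replicate 1, 2 or 4 or 72 h replicate 1 or 2 (up to 0.15).

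Of the 10 loops too low to test, 6 had their most contacts at 6 h, 3 at 0 h and the other at 72 h. None exceeded 13 contacts in a library. The highest among them at 6 h ran from chr16:47950001-47960000, next to the LINC02134 anchor, to chr16:48630001-48640000. It had 6, 8, 2 and 4 contacts at 0 h, 11, 13, 10 and 8 at 6 h, and 5, 4, 7 and 3 at 72 h. In normalized counts, every 6 h library (lowest 9.65) lay above every library at 0 h (highest 7.59) and 72 h (highest 7.28). A loop from LONP2 to chr16:49340001-49350000 had 15, 17 and 30 contacts summed over the 4 libraries of 0 h, 6 h and 72 h. The only loop with an anchor at SIAH1, a gene for an E3 ubiquitin ligase, had 26, 19 and 11.

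The loops of the region were long, with a median of 590 kb among those tested against 290 kb over all tested loops, and their median mean normalized count was 17.2 against 29.4. Of all tested loops, 13.7% were at least as long as the 690 kb of the ITFG1/PHKB to ABCC12 loop, and the loops of 600 to 800 kb had a median log2 fold change of 0.14 at 6 h and 0.21 at 72 h. With the length correction its own values were 1.55 and 2.12. All 37 loops together had 596 ± 45.4, 676 ± 25.8 and 691 ± 44.5 normalized counts at 0 h, 6 h and 72 h. Just outside the window, the nearest tested loop on the left changed by -0.36 (log2, 6 h) and -0.24 (72 h) and that on the right by 0.13 and -0.14. Just inside, the values were -0.07 and -0.05 on the left and 0.18 and -0.28 on the right.

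Loops at other genes of the same families gave a wider view, from lists drawn up with earlier results of these data known. Of the 5 phosphorylase kinase subunit genes, PHKB and PHKG2 had an end in a loop anchor, with 3 loops in all. The PHKG2 loop, of the gene for a catalytic subunit, had a mean of 115.0 ± 16 normalized counts at 0 h and was lower by 0.49 (SE 0.12; edgeR adjusted p = 0.0042) at 6 h and by 0.64 (SE 0.12; adjusted p = 6.4e-06) at 72 h. Over subfamily C of the ABC transporters, 7 of 11 genes had an end in a loop anchor, and 15 of 16 loops were tested. Of these, 2 were called higher at 6 h and 0 lower (6.41% of all tested loops were called at 6 h), and 4 higher and 2 lower at 72 h (33.6% of all). All that were called higher lie in the region, as do most tested loops of this list, and the region was chosen for rises in these comparisons. Both lower ones were at other genes, 1 at ABCC1 and ABCC6 (-0.30) and 1 at ABCC5 (-0.52). The split between the region and other genes is thus partly set by the choice and is a description. The list's median log2 fold change was -0.03 at 6 h and 0.05 at 72 h. Of 8 genes of the window and beside it, 6 (NETO2, ITFG1, PHKB, ABCC12, ABCC11 and N4BP1) had an end in an anchor of a tested loop. LONP2 had no end in a loop anchor, and the SIAH1 loop was not tested. Of the 20 tested loops at these genes, 6 rose and 2 fell from 6 h to 72 h, beside 10.7% and 9.81% of all tested loops.

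Outside the region, the 5 loops most like the ITFG1/PHKB to ABCC12 loop were found by Pearson's r of log2 normalized counts over the 12 libraries, among 6201 loops within 2-fold of its mean count. They were 1 on the X chromosome with an anchor in CTPS2 (r = 0.949), 1 on chromosome 1 between DTL and NSL1 (0.948), 1 on chromosome 2 between an end of UBE2F and PER2 (0.922), 1 on chromosome 13 between DOCK9 and UBAC2 (0.913) and 1 on chromosome 9 (0.906). Inside the region the LONP2 loop to chr16:48520001-48530000 came closest (0.891), followed by the ABCC11 to N4BP1 loop (0.821). The loops share libraries and were picked for likeness, so these are descriptions.

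In the authors' deposited table, 19 of the 37 loops have a log2 fold change, and the ITFG1/PHKB to ABCC12 loop has none and is classed static. The authors' deposited table gives 3 loops an adjusted p under 0.05: NETO2 to ABCC12 (0.0203), LONP2 to chr16:48520001-48530000 (0.0125) and LINC02134 to ABCC11 (0.0328). It classes the first and second of these as gained and the other 35 loops of the region as static.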

How the data were processed

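In situ Hi-C contacts were counted in 42 sequenced samples of K562 cells. The authors deposited 1 table of raw contact counts per loop, in 30 columns of technical replicates per the file headers, with log2 fold changes, an adjusted p-value and a class of their own. The deposited p-value columns hold the same values throughout. The model behind the authors' log2 values is not given in the sources used here, nor is the loop caller. Alignment with Juicer 1.5.6 to hg38 and the use of DESeq2 are per the submitters' processing notes, with no order or role given.

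Columns were summed into 12 libraries. Anchor starts, 0-based in the table, are printed counted from 1. Loops kept by filterByExpr (minimum count 10, minimum total 15) entered one model in edgeR 4.0.16 under R 4.3.3 (TMM, prior count 0.125, no covariate) and its quasi-likelihood test, with Benjamini-Hochberg adjustment over 24132 loops and a threshold of 0.05. The standard error is the log2 fold change divided by the root of F. The fit was tested on simulated data. Library totals give the depth, and counting intervals are at 95%. Likeness used log2 of the normalized count plus 0.5.

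Loops were named if they led the 72 h rise, passed the threshold in any comparison, shared or touched an anchor of the leading loop, or were among the 3 highest in mean count. Untested loops, loops outside the window and others that were not called were named after their values were seen. The region, its members and the gene lists were chosen with earlier results of these data known. Alternatives were DESeq2 1.42.0, other scalings, no filter, a length correction, a batch term that parts replicates 1 and 2 from the others, the replicate number as a block, technical replicates as libraries, each library left out in turn, and loops with both anchors in the window. Summing replicates 3 and 4 at each time and DESeq2 without its independent filtering were added after seeing the data. No genome sequence was used here beyond the RefSeq promoter table.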

Additional observations from a re-analysis of the deposited data

Results flagged for a closer look

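The LINC02134 to ABCC11 loop changed in opposite directions in its 2 steps: it was called higher at 6 h against 0 h and then fell by 1.04 on the log2 scale (-1.038) from 6 h to 72 h. The steps share the 6 h libraries.

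Among the groups of 4 libraries of 20 named loops, 60 groups in all, 5 held a library far from the other 3, where chance gives about 1 in 20, or 3. The loop from ABCC12 to chr16:46850001-46860000 had 15.9 normalized counts in 0 h replicate 4, above the others of its group. The DNAJA2 to ABCC11 loop had 58.0 in the same library, also the highest. The NETO2 loop into ITFG1 had 10.4 in 72 h replicate 3, the lowest of its group. The loop between the ITFG1 end and chr16:48050001-48060000 had 8.49 in 6 h replicate 3, the lowest. The LONP2 to chr16:48520001-48530000 loop had 55.5 in 6 h replicate 4, the lowest.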

How the results depend on the processing

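The log2 fold changes of the ITFG1/PHKB to ABCC12 loop moved by less than their standard error against 0 h, and stayed short of the threshold for 72 h against 6 h, in all 72 alternative values. With technical replicates as libraries the loop was not among the 9 of the region tested and has no value. The changes have these ranges. Without each library in turn they ran from 1.47 to 1.94 (6 h), 2.10 to 2.56 (72 h) and 0.48 to 0.76 (72 h against 6 h). Without each library in turn, the loops of the region called numbered 1 to 3 (6 h against 0 h), 7 to 10 (72 h against 0 h) and 5 to 13 (72 h against 6 h), beside 2, 9 and 11 with all libraries. Over all loops the calls in these fits ranged from 709 to 1556, 6554 to 8477 and 3676 to 5115, beside 1546, 8105 and 4945.

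The counts moved by over 1.5 times as follows, and the cause was not tested. With technical replicates as libraries only 9 loops of the region were tested, and only 6 had both anchors in the window. Lower counts in these smaller sets are therefore not read as losses. At 6 h, the replicate block gave 5 (4 higher and 1 lower), DESeq2 called 0 with and without its independent filtering, technical replicates as libraries gave 0 of 9 tested, replicates 1 and 2 alone gave 1 and replicates 3 and 4 alone gave 0. At 72 h against 0 h, technical replicates as libraries gave 3 of 9, replicates 1 and 2 alone 5 of 28, and loops with both anchors in the window 4 of 6. For 72 h against 6 h, DESeq2 gave 3 with and without its independent filtering, and technical replicates as libraries gave 6 of 9. Replicates 1 and 2 alone gave 4 of 28, replicates 3 and 4 alone 1 of 25, and loops with both anchors in the window 3 of 6. Over all loops, replicates 1 and 2 alone called 526 of 25175 at 6 h, 4947 at 72 h and 2400 for 72 h against 6 h. In the same order, replicates 3 and 4 alone called 213 of 23248, 3973 and 1690. Technical replicates as libraries called 1706 of 15077, 6256 and 3933, and the main fit 1546 of 24132, 8105 and 4945.

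Same-numbered libraries deviated together weakly, with r of 0.0146 to 0.124, highest for replicate 2. Libraries of different number had r of -0.0738 to 0.0441. The main fit used no pairing. With the replicate block, the calls at 72 h against 0 h numbered 9 and at 72 h against 6 h 12. The block called 1938 of all loops at 6 h, 8560 at 72 h and 5472 for 72 h against 6 h. Over all loops, scaling by the total count called 769 higher and 731 lower at 6 h against 0 h, beside 565 and 981. DESeq2 called 438 loops at 6 h, 4977 at 72 h and 1979 for 72 h against 6 h, beside 1546, 8105 and 4945. Among the 20 other calls, 104 of 486 alternative values missed the threshold and 0 changed sign. Depth limits the loops of few contacts most: at 0 h the ITFG1/PHKB to ABCC12 loop had 11 contacts, with a Poisson interval of 5.49 to 19.7.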
